A study of Homo sapiens with 4 samples.

Results

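The 40 genes described here encode the enzymes that build, attach and trim N-linked glycans, and they were measured in A2780/SRSF3si2 cells grown with Doxy against the same cells grown without it. They were chosen by name, although earlier results of these data were known. They fall into 5 steps, which hold 12, 7, 7, 6 and 8 genes in the order of the pathway. A gene value, the mean log2 signal of the probe sets that pair with that gene symbol only, was obtained for 39 of the 40, out of 16634 genes with at least 2 such probe sets. A2780/SRSF3si2 is a subline of the human ovarian cancer cell line A2780 that carries a Doxy-inducible siRNA against SRSF3, a serine/arginine-rich splicing factor. Doxy cells received 0.1 μg/ml for 3 days and No Doxy cells received none, and each group had 2 Affymetrix exon arrays, numbered replicate 1 and replicate 2. The labels leave unstated whether the 2 arrays of a group are separate cultures, so a p-value here covers array-to-array spread, which may be technical. A luciferase siRNA line with Doxy was not among the arrays, so that the effect of Doxy itself and that of the siRNA cannot be told apart.

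N-glycans are assembled on the lipid dolichol in the membrane of the endoplasmic reticulum (ER), sugar by sugar, from nucleotide sugars on the cytosolic face and from dolichol-phosphate sugars on the luminal face. The oligosaccharyltransferase (OST) then moves the finished glycan as a block onto asparagine residues of nascent or completed proteins. Glucosidases and mannosidases trim it while the protein folds, and Golgi enzymes add branches, galactose and fucose. Inherited loss of many of these genes causes congenital disorders of glycosylation.

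The siRNA target SRSF3 had gene values of 7.84 and 7.97 in Doxy arrays, against 8.50 and 8.33 in No Doxy arrays, so the groups did not overlap. Its difference of -0.51 (standard error 0.18, limma adjusted p = 0.129) did not pass the test. It did once each array was centred on its median (-0.67, limma adjusted p = 0.0376) and with quantile normalized arrays (-0.64, limma adjusted p = 0.0474). With the median of the probe sets (-0.21, limma adjusted p = 0.710) or Tukey's median polish (-0.54, limma adjusted p = 0.116) it did not. Over all genes, limma called 918 higher and 954 lower with centred arrays, against 943 and 282 in the main fit. GAPDH differed by 0.10 and ACTB by -0.03 (limma adjusted p = 0.800 and 0.960), and the GAPDH difference turned below 0 with centred arrays. Array medians were 5.18 and 5.38 with Doxy, against 5.20 and 5.04 without, and 24 genes of the G2/M phase averaged 5.79 and 7.11 with Doxy, against 6.88 and 7.20 without, with Doxy replicate 1 lowest. Of the ovarian and epithelial markers, PAX8 had 4.76 and 4.82 with Doxy, against 4.68 and 4.34 without, and EPCAM had 6.31 and 6.24 with Doxy, against 4.19 and 4.16 without. KRT19 had 4.83 and 4.31 with Doxy, against 5.21 and 5.55 without (difference -0.81, limma adjusted p = 0.0759), KRT8 differed by -0.38 and WT1 by -0.01, so that the epithelial list had 4 markers with both Doxy arrays higher and 2 with both lower. Of the marker lists, 2 of 9 epithelial, 1 of 6 fibroblast, 0 of 5 leukocyte and 0 of 6 endothelial markers were called, where 5.67% of all genes were called higher and 1.7% lower. Summed gene values of the epithelial markers were 44.9 and 43.8 with Doxy, against 42.2 and 40.8 without, and those of the fibroblast markers were 38.8 and 39.2 with Doxy, against 37.8 and 37.1 without. The leukocyte sums were 17.0 and 16.5 with Doxy, against 16.8 and 16.1 without, and the endothelial sums were 16.9 and 17.0 with Doxy, against 17.9 and 18.1 without. The part of cell cycle state or cell identity in the results below was not tested, and in bulk RNA fewer cells of a type and less RNA per cell cannot be told apart.

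Of the 39 measured genes, 5 passed the test (limma, Benjamini-Hochberg adjusted p under 0.05 over all 16634 genes). DPAGT1, the enzyme that starts the glycan, and STT3A, a catalytic subunit of the OST, were lower with Doxy. DOLK, MAN1A2 and MGAT4B, which act in dolichol phosphate supply, mannose trimming and branching, were higher. The 3 of 39 called higher stand beside 5.67% of all genes, and the 2 of 39 called lower beside 1.7% of all genes. Both Doxy arrays lay above both No Doxy arrays for 14 of the 39 genes and below them for 9, where 30.5% and 21.8% of all genes did so. The median difference of the 39 genes was 0.12, beside 0.03 for all genes. Counts this small are not read as a property of the pathway. The difference of DPAGT1 was larger in size than that of any other member. Without either No Doxy array limma called 0 of the 16634 genes, although 3079 (without replicate 1) and 2571 (without replicate 2) had an unadjusted p under 0.05, so each of the 5 calls was lost too.

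**Figure D1:**
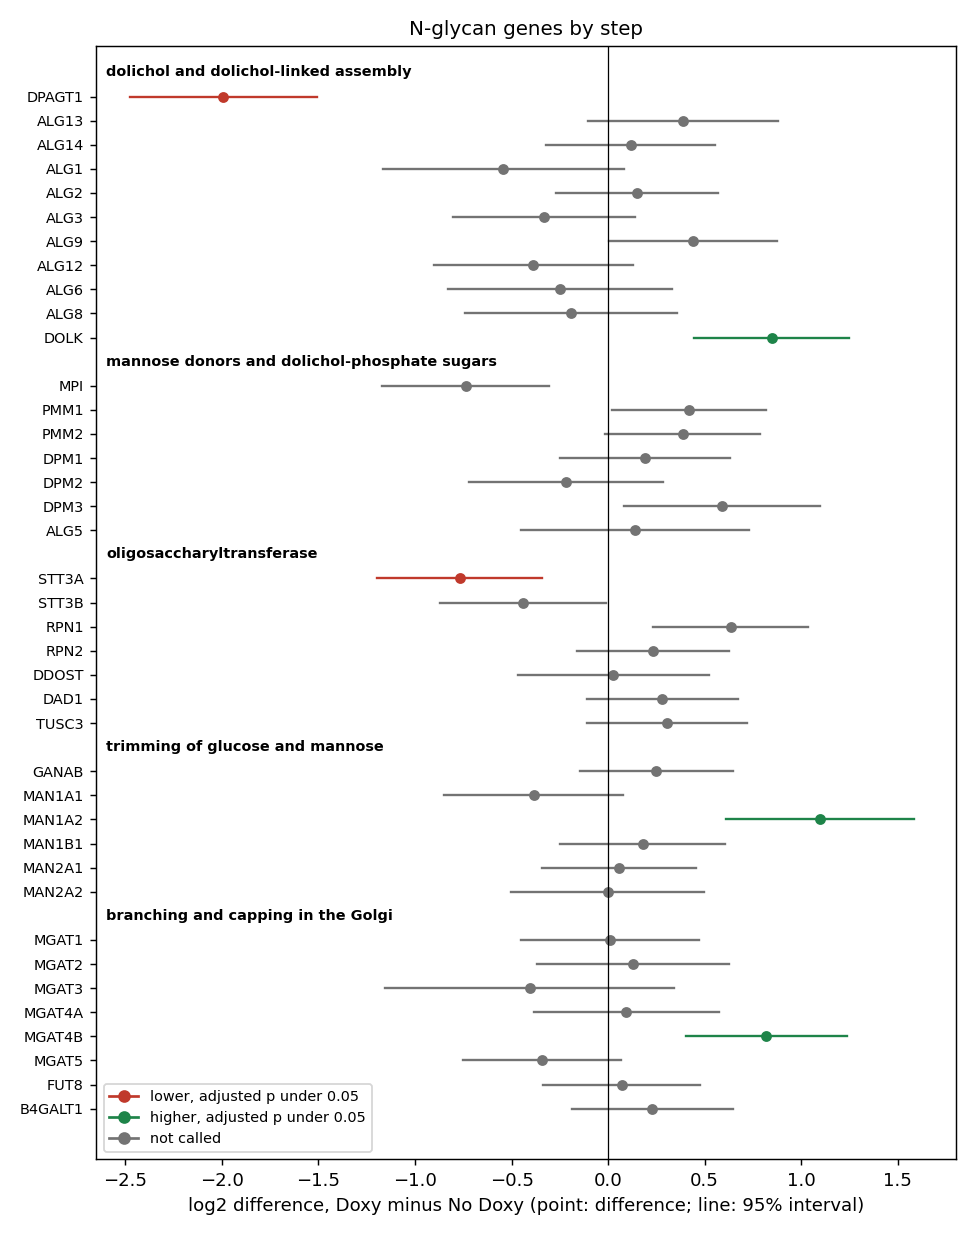
The log2 difference (Doxy minus No Doxy, x axis) of each of the 39 measured genes, grouped by step from top to bottom; points are differences, lines are limma's 95% intervals, and colour marks the calls. DPAGT1 at -1.99 stands far to the left of every other gene, and 25 of the 39 genes lie to the right of 0.

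DPAGT1 transfers N-acetylglucosamine phosphate to dolichol phosphate, which is the first step of the pathway and the one that tunicamycin blocks. Its gene value was 5.47 and 5.85 in Doxy arrays, against 7.49 and 7.82 in No Doxy arrays. Both Doxy values thus lay far below both No Doxy values, with means of 5.66 ± 0.26 with Doxy and 7.65 ± 0.23 without (SD, n = 2 each). DPAGT1 fell by 1.99 on the log2 scale (standard error 0.21, 95% interval -2.48 to -1.51, limma adjusted p = 0.00651), a 3.98-fold lower signal. Only 7 of the 16634 genes had a lower difference. Without Doxy replicate 1, the array low in G2/M genes, the difference was -1.81 (limma adjusted p = 0.0325), and without Doxy replicate 2 it was -2.18 (limma adjusted p = 0.0286). The call ended without No Doxy replicate 1 (-2.16, limma adjusted p = 0.131) and without No Doxy replicate 2 (-1.83, limma adjusted p = 0.128).

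The fall was read by every probe set of the gene. All 13 DPAGT1 probe sets had both Doxy arrays below both No Doxy arrays, where 19% of all 261273 probe sets did so (26.4% had them above), and their differences ran from -2.50 to -0.91 with a median of -2.06. The difference of largest size was at probe set 3394202, with 6.49 and 6.75 in Doxy arrays, against 9.05 and 9.19 in No Doxy arrays. The neighbouring number 3394201 had 7.16 and 7.32 with Doxy, against 9.64 and 9.76 without. The brightest, 3394204, had 8.11 and 8.47 with Doxy, against 10.17 and 10.06 without. In these bright probe sets the gap between the groups was several times the gap between arrays of a group. Probe sets 3394195, 3394206, 3394207, 3394212 and 3394213 had values between 5.15 and 7.51 with Doxy, against 7.69 to 9.43 without. Probe set 3394197 had 4.57 and 5.94 with Doxy, against 7.33 and 7.78 without. Both Doxy arrays thus lay below both No Doxy arrays at these 6 probe sets too, although the Doxy arrays were spread at 3394197. The dim probe sets 3394194 and 3394210 had 3.54 and 4.26, and 3.80 and 4.48, with Doxy, against 5.33 and 6.08, and 5.41 and 6.45, without. Probe set 3394199 had 4.64 and 3.21 with Doxy, against 4.65 and 6.68 without, so that its groups nearly touched. The dimmest, 3394214, had 1.78 and 2.63 with Doxy, against 3.19 and 3.06 without, and its difference was the smallest in size. No single probe set of DPAGT1 was called in the limma fit over all probe sets (adjusted p from 0.241 to 0.446), and 11 of the 13 had an unadjusted p under 0.05. That fit called 0% of the 261273 probe sets, 33246 of which had an unadjusted p under 0.05. With a trended and robust prior limma called 1621 probe sets higher and 587 lower, 8 of them in DPAGT1. In diffSplice, limma's F test for unequal probe sets of a gene, DPAGT1 was not called (adjusted p = 0.985). They are read on the same arrays and are not independent of each other.

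**Figure D2:**
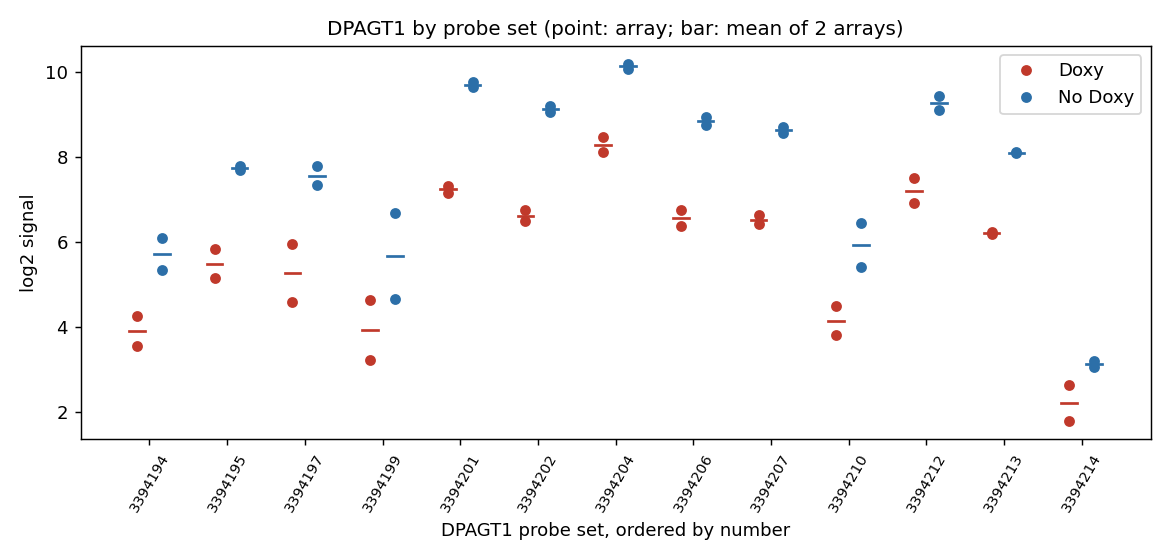
Signal (log2, y axis) of the 13 DPAGT1 probe sets in order of their number (x axis), with Doxy arrays to the left of No Doxy arrays; points are arrays and bars are means of 2 arrays. At every probe set both Doxy points lie below both No Doxy points, by a mean of 0.91 to 2.50.

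Of the 6 genes nearest to DPAGT1 on its chromosome, 1 was called higher by limma and 0 lower (5.67% and 1.7% of all genes), HYOU1 among them having an unadjusted p under 0.05. In the gene order of the RefSeq table of GRCh38.p14, SLC37A4, HYOU1 and VPS11 come before DPAGT1 and H2AX, C2CD2L and HINFP after it. The adjacent VPS11, a subunit of lysosomal tethering complexes, had 7.15 and 7.49 with Doxy, against 6.28 and 6.36 without, a rise of 1.00 (limma adjusted p = 0.0245). That call was lost without Doxy replicate 2 (0.83, limma adjusted p = 0.112), without No Doxy replicate 1 (0.96, limma adjusted p = 0.159) and without No Doxy replicate 2 (1.04, limma adjusted p = 0.170). With the median of the probe sets as gene value VPS11 rose by 1.08 and was not called (limma adjusted p = 0.107). The adjacent H2AX, a histone variant, differed by -0.23 (limma adjusted p = 0.636), with overlapping arrays. HYOU1, an ER chaperone, differed by -0.62 (limma adjusted p = 0.101). With centred arrays it differed by -0.78 (limma adjusted p = 0.0174), and with the probe set median by -0.61 (limma adjusted p = 0.254). SLC37A4, C2CD2L and HINFP differed by 0.03, 0.21 and 0.22, with overlapping arrays.

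Promoters of 34 of the 40 genes were found in the RefSeq promoter table of GRCh38.p14, which gives 250 bases before a start site and 50 after it. They are shown for the genes called lower, DPAGT1 and STT3A, and for DOLK, the gene of the same early step that was called higher. The DPAGT1 promoter spans chr11:119101804-119102103 on the minus strand, that of STT3A chr11:125592602-125592901 on the plus strand and that of DOLK chr9:128947554-128947853 on the minus strand. The DPAGT1 and DOLK start sites are the ends of those genes in the RefSeq gene table, while the STT3A start site lies inside the span given for that gene, so its window is not the region before the outermost start. Capitals mark CCACG, the last letters of the ER stress element, on either strand (CGTGG on the other), and the sequences run 5′ to 3′.
DPAGT1: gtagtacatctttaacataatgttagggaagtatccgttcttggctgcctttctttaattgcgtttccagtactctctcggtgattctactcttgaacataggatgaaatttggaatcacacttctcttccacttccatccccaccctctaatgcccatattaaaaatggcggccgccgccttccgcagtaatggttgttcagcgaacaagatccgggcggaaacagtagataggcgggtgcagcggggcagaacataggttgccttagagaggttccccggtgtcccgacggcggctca
STT3A: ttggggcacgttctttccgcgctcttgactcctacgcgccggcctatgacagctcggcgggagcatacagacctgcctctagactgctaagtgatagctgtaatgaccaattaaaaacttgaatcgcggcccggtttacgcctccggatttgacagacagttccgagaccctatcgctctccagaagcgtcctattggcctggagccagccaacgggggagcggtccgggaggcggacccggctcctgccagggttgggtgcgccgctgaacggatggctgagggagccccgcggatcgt
DOLK: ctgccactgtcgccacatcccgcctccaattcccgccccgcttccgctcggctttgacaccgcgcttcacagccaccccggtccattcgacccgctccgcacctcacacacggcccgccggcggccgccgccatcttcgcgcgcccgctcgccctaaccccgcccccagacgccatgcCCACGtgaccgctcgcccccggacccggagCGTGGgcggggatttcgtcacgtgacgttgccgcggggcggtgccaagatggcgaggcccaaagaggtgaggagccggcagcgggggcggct
The DOLK window held 2 matches and the DPAGT1 and STT3A windows held none. Over all members CCACG stood in 23 of 34 promoters (67.6%), beside 51.7% of 13214 genes with both a gene value and a promoter and 42.1% of all 27305 genes in the table. The whole ER stress element, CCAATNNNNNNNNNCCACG, stood in 1 of 34, that of ALG12, beside 0.136% of the genes on the arrays and 0.0916% of all genes. It lies at chr22:49918554-49918572 on the minus strand, at bases -134 to -116 with the start of the gene as 0, with its fixed letters in capitals.
ALG12: CCAATccgagttcgCCACG
Neither TGACGTGG, the unfolded protein response element, nor TGACGTCA, the core of the cyclic AMP response element, stood in any of the 34 promoters, beside 1.15% and 3.16% of the genes on the arrays and 0.927% and 2.25% of all genes. Both strands were searched, and TGACGTGG holds CCACG on its other strand, as the ER stress element holds it. These matches describe the letters of the windows only. ALG12, which adds a mannose on the luminal side, had 5.18 and 5.74 with Doxy, against 5.90 and 5.79 without (difference -0.39, limma adjusted p = 0.361).

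In the assembly on dolichol, 1 of the 11 measured genes was called higher and 1 lower (5.67% and 1.7% of all genes). The median difference of the 11 genes was -0.19. DOLK, the kinase that makes the dolichol phosphate on which DPAGT1 acts, had 6.46 and 6.6 with Doxy, against 5.65 and 5.71 without. The groups did not overlap, and DOLK rose by 0.85 (standard error 0.17, limma adjusted p = 0.0298). It was read by 5 probe sets, whose differences ran from 0.15 to 1.32. For 3 of them both Doxy arrays lay above both No Doxy arrays (26.4% of all probe sets). The median of the 5 probe set differences was 1.01. With the median level of the probe sets on each array as gene value, which was that of probe set 3226794 on all 4 arrays, the DOLK difference was 0.15 (limma adjusted p = 0.799), and with Tukey's median polish it was 0.61 (limma adjusted p = 0.0802), so its size rests on how the 5 were averaged. The call was also lost without Doxy replicate 1 (0.92, limma adjusted p = 0.0604), without Doxy replicate 2 (0.78, limma adjusted p = 0.124), without No Doxy replicate 1 (0.82, limma adjusted p = 0.163) and without No Doxy replicate 2 (0.88, limma adjusted p = 0.179).

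ALG13 and ALG14, which together add the next N-acetylglucosamine, differed by 0.39 and 0.12 (limma adjusted p = 0.336 and 0.784). ALG1, which adds the first mannose, had 5.56 and 6.38 with Doxy, against 6.42 and 6.61 without, a difference of -0.54 (limma adjusted p = 0.282). Its Doxy arrays were spread (SD 0.58), and without Doxy replicate 1 the ALG1 difference was -0.13. With centred arrays it was -0.71 (limma adjusted p = 0.0473), a setting that called 954 of all genes lower, against 282. ALG1 was not called with quantile normalized arrays (-0.69, limma adjusted p = 0.0987) or with the probe set median (-0.54, limma adjusted p = 0.453). ALG2, which adds further mannoses on the cytosolic side, differed by 0.15, with overlapping arrays. Of the enzymes that add mannose on the luminal side, ALG3 differed by -0.33, ALG12 by -0.39 and ALG9 by 0.44 (limma adjusted p = 0.395, 0.361 and 0.214). For ALG9, 15 of 20 probe sets had both Doxy arrays above both No Doxy arrays. Over all probe sets 26.4% did so, and 19% had them below. The glucosyltransferases ALG6 and ALG8 differed by -0.25 and -0.19, with overlapping arrays. ALG11, which adds mannose on the cytosolic side, has no gene value, since its 18 probe sets are shared with UTP14C. The mean of those 18 was 6.34 and 6.46 with Doxy, against 6.98 and 6.79 without, and 9 of them had both Doxy arrays below both No Doxy arrays, but the signals of these genes cannot be told apart.

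In the supply of mannose and of dolichol-phosphate sugars, 0 of 7 genes were called in the limma fit. Over all genes 5.67% were called higher and 1.7% lower. An unadjusted limma p under 0.05 was found for 3 of the 7, and for 3849 of all 16634 genes. The methods' t-test after adjustment called none of the 7, and 0 of all genes. The median difference was 0.19. MPI, which makes mannose phosphate from fructose phosphate, had the difference of largest size in this step. It had 5.27 and 5.60 with Doxy, against 6.17 and 6.18 without. Its arrays did not overlap and its difference was -0.74 (standard error 0.19, limma adjusted p = 0.0548). The 9 probe sets of MPI ran from -2.47 to 0.61, and 6 of them had both Doxy arrays below both No Doxy arrays (19% of all probe sets). With centred arrays the MPI difference was -0.90 (limma adjusted p = 0.00557), and with the probe set median it was -0.74 (limma adjusted p = 0.182). The phosphomannomutases PMM1 and PMM2 differed by 0.42 and 0.39 (limma adjusted p = 0.192 and 0.234), opposite in sign to MPI, whose product they use. DPM1, the catalytic subunit of dolichol-phosphate-mannose synthase, differed by 0.19 and its partners DPM2 and DPM3 by -0.22 and 0.59 (limma adjusted p = 0.628, 0.630 and 0.153). ALG5, which makes dolichol-phosphate glucose, differed by 0.14, with overlapping arrays.

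PMM2, the gene most often mutated in congenital disorders of glycosylation, was the only member whose probe sets changed unequally (diffSplice adjusted p = 0.0136), which is 1 of 39, where 2.46% of all genes were called. The call rested on probe set 3647514, which had 6.0 and 5.30 in Doxy arrays, against 3.25 and 1.84 in No Doxy arrays. Its difference was 3.10, while the median of the other 9 probe sets was 0.12 and they ran from -0.74 to 0.55. At that probe set both Doxy arrays lay above both No Doxy arrays, the No Doxy arrays being dim and unlike each other (SD 0.996). By diffSplice the call was lost without Doxy replicate 1, without Doxy replicate 2 and without No Doxy replicate 2. It was made without No Doxy replicate 1, but that fit also called members that the main fit did not, GANAB and MPI among them. With the median of the probe sets in place of their mean, the PMM2 gene difference was -0.21 (limma adjusted p = 0.671). Where this probe set lies in the gene was not analysed here.

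**Figure D3:**
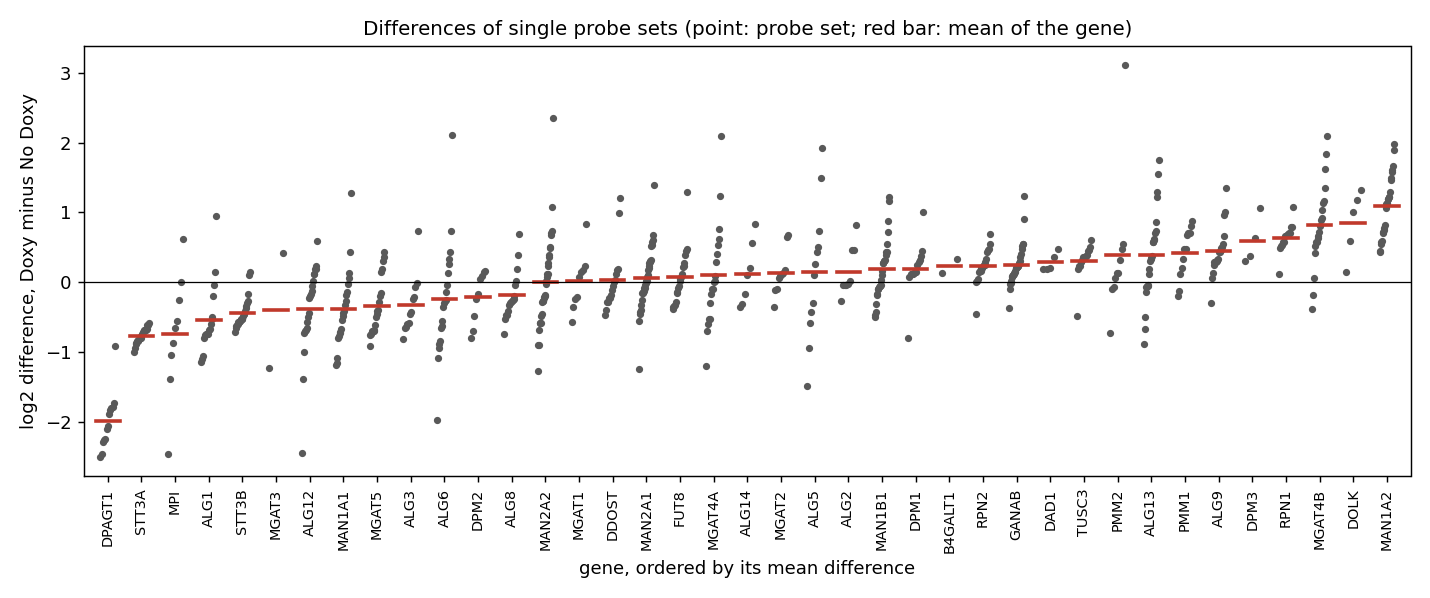
Differences (log2, Doxy minus No Doxy, y axis) of the 619 probe sets of the 39 measured genes, ordered by the mean of the gene (red bar); each point is a probe set. All DPAGT1 and STT3A points lie below 0 and all MAN1A2 and RPN1 points above it, and the PMM2 point at 3.10 is the highest of all.

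In the oligosaccharyltransferase 1 of 7 genes was called, lower with Doxy (1.7% of all genes were), and the differences of the subunits lay on both sides of 0. Over all probe sets, 19% had both Doxy arrays below both No Doxy arrays. STT3A, the catalytic subunit that glycosylates proteins as they enter the ER, had 10.00 and 9.70 with Doxy, against 10.62 and 10.62 without. Both Doxy arrays lay lower, and STT3A fell by 0.77 on the log2 scale (standard error 0.18, limma adjusted p = 0.0466), a 1.70-fold lower signal. All 21 of its probe sets had both Doxy arrays below both No Doxy arrays, with differences from -1.0 to -0.59. The call lay close to the threshold and was lost without Doxy replicate 1 (-0.92, limma adjusted p = 0.0601), without Doxy replicate 2 (-0.62, limma adjusted p = 0.189), without No Doxy replicate 1 (-0.77, limma adjusted p = 0.196) and without No Doxy replicate 2 (-0.77, limma adjusted p = 0.227). STT3B, the catalytic subunit that acts on sites passed over at entry, had 8.92 and 9.23 with Doxy, against 9.51 and 9.52 without. It differed by -0.44 (limma adjusted p = 0.207), with 18 of 23 probe sets lower in both Doxy arrays.

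Of the members that both forms of the OST share, RPN1, RPN2, DDOST and DAD1, 0 of 4 were called by limma. Over all genes 5.67% were called higher and 1.7% lower. RPN1 alone had an unadjusted limma p under 0.05, as 3849 of all 16634 genes had. Limma called RPN1 higher with a trended and robust prior (adjusted p = 0.0372) and with a replicate block (adjusted p = 0.0388). It did not with centred arrays (0.47, limma adjusted p = 0.165) or with the probe set median (0.68, limma adjusted p = 0.186). All 4 had differences above 0. DDOST lay below 0 with the probe set median, median polish, centred arrays, quantile normalized arrays and some arrays left out. RPN1, ribophorin I, had 9.76 and 9.93 with Doxy, against 9.20 and 9.22 without. Its arrays did not overlap and its difference was 0.63 (standard error 0.17, limma adjusted p = 0.0691). For 13 of its 14 probe sets both Doxy arrays lay above both No Doxy arrays (26.4% of all probe sets). RPN2, DDOST and DAD1 differed by 0.23, 0.03 and 0.28 (limma adjusted p = 0.489, 0.961 and 0.387), DDOST with overlapping arrays. TUSC3, an oxidoreductase of the STT3B form, differed by 0.30 (limma adjusted p = 0.374), with 11 of 14 probe sets higher in both Doxy arrays. Of the other OST subunits listed, 4 of 5 were measured, and OST4 had no gene value. OSTC, a subunit of the STT3A form, had 7.89 and 7.56 with Doxy, against 8.79 and 8.53 without. It fell by 0.94 on the log2 scale (standard error 0.20, limma adjusted p = 0.0322), and 6 of its 7 probe sets had both Doxy arrays below both No Doxy arrays. OSTC was not called with the probe set median (-1.24, limma adjusted p = 0.0730), and it was with median polish (-0.99, limma adjusted p = 0.0356). KRTCAP2, the other subunit particular to that form, had 8.11 and 8.30 with Doxy, against 7.65 and 7.72 without (difference 0.52, limma adjusted p = 0.122). TMEM258, another subunit, and MAGT1, the partner of STT3B that TUSC3 can replace, differed by 0.18 and 0.17. The OSTC call was lost without Doxy replicate 1 (-1.10, limma adjusted p = 0.0510), without Doxy replicate 2 (-0.77, limma adjusted p = 0.145), without No Doxy replicate 1 (-0.81, limma adjusted p = 0.190) and without No Doxy replicate 2 (-1.07, limma adjusted p = 0.167).

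**Figure D4:**
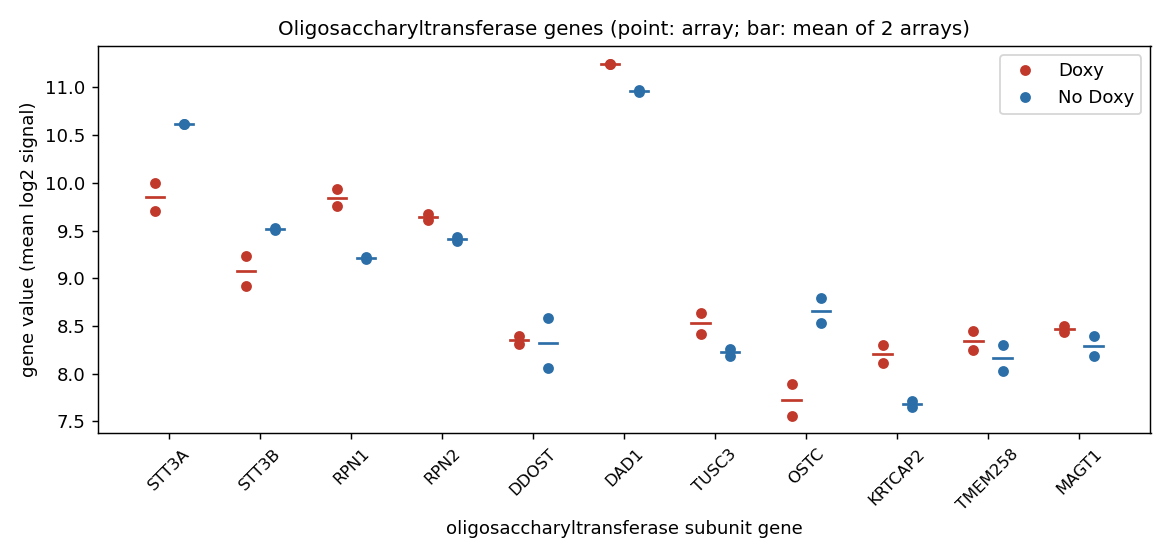
Gene values (mean log2 signal, y axis) of 11 oligosaccharyltransferase genes (x axis), with Doxy arrays to the left of No Doxy arrays; points are arrays and bars are means of 2 arrays. STT3A, STT3B and OSTC have both Doxy points below both No Doxy points, RPN1, RPN2, DAD1, TUSC3, KRTCAP2 and MAGT1 have them above, and DDOST and TMEM258 overlap.

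In the trimming of glucose and mannose 1 of 6 genes was called, higher with Doxy (5.67% of all genes were). Over all probe sets, 26.4% had both Doxy arrays above both No Doxy arrays and 19% had them below. MAN1A2, a Golgi mannosidase that removes the outer mannoses, had 7.28 and 7.78 with Doxy, against 6.44 and 6.42 without. Its arrays did not overlap, although the Doxy arrays were spread (SD 0.35), and MAN1A2 rose by 1.10 (standard error 0.21, limma adjusted p = 0.0253), a 2.14-fold higher signal. The differences of all 25 probe sets were above 0, from 0.43 to 1.97, and 21 of them had both Doxy arrays above both No Doxy arrays. The MAN1A2 difference was 1.35 without Doxy replicate 1 (limma adjusted p = 0.0364), and the call was lost without Doxy replicate 2 (0.85, limma adjusted p = 0.107), without No Doxy replicate 1 (1.11, limma adjusted p = 0.158) and without No Doxy replicate 2 (1.08, limma adjusted p = 0.189). Its paralog MAN1A1 had 5.06 and 5.24 with Doxy, against 5.73 and 5.35 without, a difference of -0.39 (limma adjusted p = 0.304), and 12 of its 21 probe sets lay lower in both Doxy arrays. MAN1B1, the ER mannosidase, differed by 0.18, and MAN2A1 and MAN2A2, which act after the first branch is begun, differed by 0.06 and -0.0022, all with overlapping arrays. GANAB, the catalytic subunit of glucosidase II, differed by 0.25 (limma adjusted p = 0.451), with 19 of 30 probe sets higher in both Doxy arrays.

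In branching and capping 1 of 8 genes was called, higher with Doxy (5.67% of all genes were). Over all probe sets, 26.4% had both Doxy arrays above both No Doxy arrays and 19% had them below. MGAT4B, which adds a branch to the core, had 5.68 and 5.72 with Doxy, against 5.00 and 4.76 without. The groups did not overlap and MGAT4B rose by 0.82 (standard error 0.18, limma adjusted p = 0.0359), with 14 of 20 probe sets higher in both Doxy arrays and differences from -0.39 to 2.09. Its call was lost without Doxy replicate 1 (0.84, limma adjusted p = 0.0838), without Doxy replicate 2 (0.80, limma adjusted p = 0.134), without No Doxy replicate 1 (0.94, limma adjusted p = 0.147) and without No Doxy replicate 2 (0.70, limma adjusted p = 0.217). MGAT4A, which adds the same branch, differed by 0.10, with overlapping arrays. MGAT1 and MGAT2, which begin the branches of complex glycans, differed by 0.01 and 0.13, with overlapping arrays. MGAT5, which adds a further branch, differed by -0.34 (limma adjusted p = 0.305), with 11 of 20 probe sets lower in both Doxy arrays. MGAT3, which adds the bisecting sugar, was read by 2 probe sets and had 4.67 and 4.66 with Doxy, against 5.62 and 4.52 without (difference -0.41, limma adjusted p = 0.535). Its No Doxy arrays lay further apart than the groups did. FUT8, the core fucosyltransferase, differed by 0.07, and B4GALT1, a galactosyltransferase, had 2.20 and 1.96 with Doxy, against 1.89 and 1.81 without, in 2 dim probe sets.

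Of 55 other genes of the pathway, 50 were measured, with 1 called higher, 2 called lower and a median difference of 0.01, where 5.67% of all genes were called higher and 1.7% lower and their median was 0.03. OSTC is given above with the OST. DHDDS, which makes the long chain of dolichol, had 7.51 and 8.05 with Doxy, against 6.87 and 6.84 without. It rose by 0.93 (standard error 0.22, limma adjusted p = 0.0425), with 7 of 10 probe sets higher in both Doxy arrays (26.4% of all probe sets). GNPNAT1, which acetylates glucosamine phosphate on the way to the nucleotide sugar that DPAGT1 uses, had 9.10 and 9.29 with Doxy, against 9.95 and 10.08 without. It fell by 0.82 on the log2 scale (standard error 0.18, limma adjusted p = 0.0353), with 14 of 15 probe sets lower in both Doxy arrays (19% of all probe sets). Neither group of arrays overlapped the other for these genes. With the probe set median limma called neither DHDDS (0.65, limma adjusted p = 0.287) nor GNPNAT1 (-0.97, limma adjusted p = 0.0949). Median polish ended the DHDDS call (0.79, limma adjusted p = 0.110) and kept that of GNPNAT1 (-0.87, limma adjusted p = 0.0449). With the dimmest 25% of probe sets left out both calls were lost (limma adjusted p = 0.0690 and 0.0651). The DHDDS difference was 1.19 without Doxy replicate 1 (limma adjusted p = 0.0415), and its call was lost without Doxy replicate 2 (0.66, limma adjusted p = 0.168), without No Doxy replicate 1 (0.94, limma adjusted p = 0.196) and without No Doxy replicate 2 (0.91, limma adjusted p = 0.239). The GNPNAT1 call was lost without Doxy replicate 1 (-0.72, limma adjusted p = 0.103), without Doxy replicate 2 (-0.92, limma adjusted p = 0.0947), without No Doxy replicate 1 (-0.89, limma adjusted p = 0.155) and without No Doxy replicate 2 (-0.76, limma adjusted p = 0.214). By list, 1 of 6 further genes of assembly on dolichol and 1 of 14 nucleotide sugar makers were called, and 0 of 10 genes of glucosidase, folding check and ER mannose removal, 0 of 4 nucleotide sugar carriers and 0 of 12 other Golgi mannosidase, branching and capping enzymes were. Unadjusted limma p-values under 0.05 numbered 1, 0 and 1 in the lists without a call, and 3849 over all 16634 genes.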

How the data were processed

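Probe set values of 4 Affymetrix Human Exon 1.0 ST arrays of A2780/SRSF3si2 cells (2 Doxy, 2 No Doxy, grouped by the sample labels) were used as deposited. The authors made the log2 values by RMA in Affymetrix Expression Console on core exons. Software version, build and further options: not given in the sources used here. Partek 6.6 is named in the submitters' processing notes. Of 287329 probe sets, 261273 pair with 1 symbol. The others, with several symbols (9155) or none (16901), were not used. The RefSeq table of GRCh38.p14 held 14546 of the 16941 symbols as current names, gave newer names for 2276, and the other 119 were used unchanged.

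A gene value is the mean log2 of at least 2 probe sets. Genes were tested by limma 3.58.1 (R 4.3.3), with no covariate; the fit had 2 residual and 5.95 prior degrees of freedom. The Benjamini-Hochberg threshold was 0.05. Unequal probe sets were tested by diffSplice, and probe sets by limma over all 261273. Alternatives were other gene values (median, median polish), probe set filters, scalings and variance priors, a replicate block, the methods' t-test, the Simes test and each array left out. Scripts were tested on simulated data. Array number limits the precision, and where leaving out an array leaves a group with 1, its spread is taken from the other group.

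Array values are given for DPAGT1 and its probe sets, called members and the member with the difference of largest size in each step. Other members are given by their difference. Array values were added for some of them (ALG1, ALG12, STT3B, RPN1, MAN1A1, MGAT3 and B4GALT1) after these were seen. Of the other pathway genes, the called ones are named by rule, and KRTCAP2, TMEM258 and MAGT1 after their values were seen, likewise the neighbours of DPAGT1. Members and lists were chosen with earlier results of these data known. No array was left out of the main fits, and raw intensities were not analysed here.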

Additional observations from a re-analysis of the deposited data

How the results depend on the processing

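DPAGT1 was called lower under every alternative except the methods' t-test after Benjamini-Hochberg adjustment (-1.99, t-test adjusted p = 0.309) and the fits without a No Doxy array. Its difference ran from -2.18 to -1.81 with each array left out (-2.16 and -1.83 without No Doxy replicates 1 and 2). The adjustment of the t-test was added here. For expression the paper's cutoffs were p under 0.05 and an absolute fold change above 2, and DPAGT1 was 3.98-fold lower. The members called higher were 3 in the main setting, 0 with the probe set median, 0 by the methods' t-test (which called none of 16634 genes, 2328 having an unadjusted p under 0.05), 1 with the dimmest 25% of probe sets left out, and 0 to 1 with each array left out. The members called lower were 2 in the main setting, 1 with the median of probe sets, with Tukey's median polish, with the dimmest 25% left out and with genes of at least 1 probe set, 4 with centred arrays (ALG1 and MPI added), 0 by the t-test and 0 to 1 with each array left out. Members with unequal probe sets were 1 by the F test and 2 by the Simes test (GANAB added). The number moved with each array left out, where a group is left with 1 array and the share over all genes is not given here. DPAGT1 probe sets called were 0 in the main setting and 8 with a trended and robust prior, where 11 had an unadjusted p under 0.05. Centring moved the median of all genes to -0.13, against 0.03, and the calls over all genes to 918 higher and 954 lower, against 943 and 282, and quantile normalized arrays gave 899 and 606. Over all members and alternatives, 32 gene differences lost a call, 7 gained a call (MPI, RPN1 and ALG1), 41 changed sign and 461 kept direction and side of the threshold. With 2 arrays a group the smallest difference of a called member was -0.77 (STT3A).

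The replicate numbers were not described as pairs, and deviations of equally numbered arrays gave r = 0.127 in the 2 pairs, which does not establish a pairing. With a replicate block, 4 members were called higher and 3 lower (RPN1 and MPI added), where 1763 of all 16634 genes were called higher and 658 lower. The DPAGT1 difference was -1.99 (limma adjusted p = 1.91e-08), with 1 member of unequal probe sets and 0 DPAGT1 probe sets called. Standard errors were nearly alike in the block fit (0.213 for DPAGT1, GAPDH and EPCAM, against 0.210, 0.173 and 0.170 in the main fit). That p-value thus rests mostly on a spread pooled over genes.

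Differences of uncalled members changed sign as follows. With the median of probe sets, ALG2 was -0.095, ALG5 -0.43, DDOST -0.20, DPM2 0.0080, MGAT2 -0.0026, MGAT5 0.10 and PMM2 -0.21. With Tukey's median polish, DDOST was -0.058, MGAT1 -0.22 and MGAT2 -0.00082. With centred arrays, ALG14 was -0.045, ALG2 -0.012, ALG5 -0.023, DDOST -0.13, FUT8 -0.091, MAN2A1 -0.11, MGAT1 -0.15, MGAT2 -0.031 and MGAT4A -0.067. With quantile normalized arrays, DDOST was -0.093, FUT8 -0.067, MAN2A1 -0.087 and MGAT1 -0.14. With each array left out, ALG14 ran from -0.040 to 0.28, ALG5 from -0.19 to 0.47, ALG6 from -0.58 to 0.082, ALG8 from -0.52 to 0.14, DDOST from -0.23 to 0.29, DPM2 from -0.49 to 0.055, FUT8 from -0.021 to 0.16, MAN2A1 from -0.0098 to 0.12, MAN2A2 from -0.27 to 0.27, MGAT1 from -0.17 to 0.18, MGAT2 from -0.091 to 0.35, MGAT3 from -0.96 to 0.15 and MGAT4A from -0.14 to 0.33.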
